A study of Mus musculus with 6 samples.

Results

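The nuclear-encoded respiratory chain subunit mRNAs are the 86 nuclear protein-coding genes of GENCODE M21 whose symbols name subunits of complexes I to V of the mitochondrial inner membrane (those starting with Ndufa, Ndufb, Ndufc, Ndufs, Ndufv, Uqcr, Cox4i, Cox5, Cox6, Cox7, Cox8 or Atp5, with Sdha, Sdhb, Sdhc, Sdhd and Cyc1, and without the Ndufaf assembly factors). They are 86 of the 47729 genes counted and of 21684 nuclear protein-coding genes, and were set against the 13 mRNAs encoded by mitochondrial DNA. RNA came from the extracellular vesicles (EVs) of WEHI-231 cells, a mouse line from a splenic B cell lymphoma. For each sample, 500000 cells were treated for 1 h with 10 µg/mL of either the rat anti-mouse CD24 antibody M1/69 or a matched isotype antibody, each with 5 µg/mL of a secondary antibody against rat, in vesicle-depleted medium, and the EVs were collected with the Vn96 peptide. Each condition had 3 biological replicates of this 1 cell line, and no untreated sample was compared here.

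Most of the energy captured from NADH and succinate in a cell passes along the respiratory chain. Complexes I, III and IV pump protons across the inner membrane, complex II feeds in electrons from succinate, and complex V, the ATP synthase, uses the proton gradient to make ATP. All complexes but II are built from subunits of both genomes: the nuclear mRNAs are translated in the cytosol or at the outer membrane, while the mRNAs of mitochondrial DNA are made and translated inside the organelle. In most cell types the nuclear subunit mRNAs count among the abundant cytosolic messages, next to those of ribosomal proteins.

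In these EVs the nuclear subunit mRNAs were close to the limit of detection, while their mitochondrially encoded partners were among the better counted mRNAs. All 6 libraries are of EVs, so these levels could not be set against those of the cells. The 86 nuclear genes together had 53 counts over the 6 libraries, and the 13 mitochondrially encoded mRNAs had 9966. Only 26 of the 86 nuclear genes had a count in any library, and the highest, Ndufs7, had 8. All 13 mitochondrially encoded mRNAs were detected, and the lowest of them, mt-Nd3, had 30. In raw counts the ratio was 188. Per kilobase of exon, the mitochondrially encoded mRNAs had 874 counts and the nuclear genes 0.305, a ratio of 2863. Lengths were those of merged exons, and counts followed length only weakly over the nuclear genes (Spearman rho 0.197), so this ratio depends on the scaling. The ratio per kilobase was 3411 without anti-CD24 replicate 1 and 4815 without isotype replicate 3, the highest of the 6 values with 1 library left out.

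Counts on genes ran from 166129 to 794185 per library, of which 84.8% to 91.4% fell on rRNA and ribozyme genes, so that 1626 to 9549 counts per library were left for nuclear protein-coding genes. Of the 9 B cell markers with a protein-coding annotation, 7 had a count, with sums of 3, 0 and 7 in the isotype libraries and 7, 2 and 3 in the anti-CD24 libraries, and Cd37 was at 0. Libraries of 1 condition also differed. Anti-CD24 replicate 1 alone held the 99 counts of the 4 globin genes, markers of erythroid cells, with Alas2 at 0 in every library. The fibroblast collagen genes had 26 counts there, 12 in anti-CD24 replicate 2 and from 0 to 5 in the other libraries. The myeloid markers had 4 counts in each of anti-CD24 replicates 1 and 2 and none elsewhere, and the T cell markers had 1 count in all. Barcode 1 marked each isotype library and barcode 2 each anti-CD24 library, so barcode and condition cannot be told apart.

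A pair of coding sequences of nearly equal length, 1 from each genome, gives an example of the contrast at the level of single genes. mt-Atp8 and Ndufa1 had the highest mean levels per kilobase among the mitochondrially encoded mRNAs and the nuclear genes, so neither is typical. Both sequences are given from the GENCODE M21 transcripts of GRCm38. mt-Atp8 (chrM:7766-7969, plus strand, 1 exon) encodes a small membrane subunit of ATP synthase, and the capitals mark the 43 bases that also belong to mt-Atp6. Ndufa1 (chrX:37187588-37191163, minus strand, 3 exons) encodes a small accessory subunit needed to assemble the membrane arm of complex I. It is shown as the spliced coding sequence with its start and stop codons in capitals.
mt-Atp8: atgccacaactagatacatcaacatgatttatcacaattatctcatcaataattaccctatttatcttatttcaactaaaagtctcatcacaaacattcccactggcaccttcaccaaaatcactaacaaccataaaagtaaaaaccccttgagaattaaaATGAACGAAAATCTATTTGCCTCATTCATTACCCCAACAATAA
Ndufa1: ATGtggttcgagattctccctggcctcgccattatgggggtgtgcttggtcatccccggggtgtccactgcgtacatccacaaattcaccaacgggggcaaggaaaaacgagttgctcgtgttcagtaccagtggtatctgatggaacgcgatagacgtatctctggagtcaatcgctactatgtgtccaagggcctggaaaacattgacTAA

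The coding sequence of mt-Atp8 has 204 bases and that of Ndufa1 has 213. The isotype libraries held 171, 261 and 261 counts of mt-Atp8 and the anti-CD24 libraries 119, 671 and 369. Ndufa1 had 3 counts, all in anti-CD24 replicate 3. Its 419 exon bases gave 7.16 counts per kilobase, and its mean level of 1.5 CPM per kilobase (CPM, the count scaled to the library's total) was the highest among the nuclear genes.

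The sums of both sets were compared within each library, where depth is shared. Isotype replicates 1, 2 and 3 held 3, 0 and 25 counts of the nuclear genes, against 715, 810 and 1110 of the mitochondrially encoded mRNAs. Anti-CD24 replicates 1, 2 and 3 held 12, 7 and 6 counts of the nuclear genes, against 780, 3448 and 3103. In each of the 6 libraries the mitochondrially encoded sum was thus far above the nuclear one. There were 238 mitochondrially encoded counts per nuclear count in isotype replicate 1 and 44.4 in isotype replicate 3. The corresponding values were 65.0, 493 and 517 in anti-CD24 replicates 1, 2 and 3. Isotype replicate 2 had 0 nuclear counts of 810 in both sets, which allows a nuclear share of up to 0.370% and a ratio of at least 270 at a limit of 3 counts. Over all libraries the nuclear genes made up 0.529% of the counts of both sets (95% Wilson interval 0.405% to 0.691%). Such intervals and limits cover counting error only, since the reads carry no molecular identifiers.

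**Figure D1:**
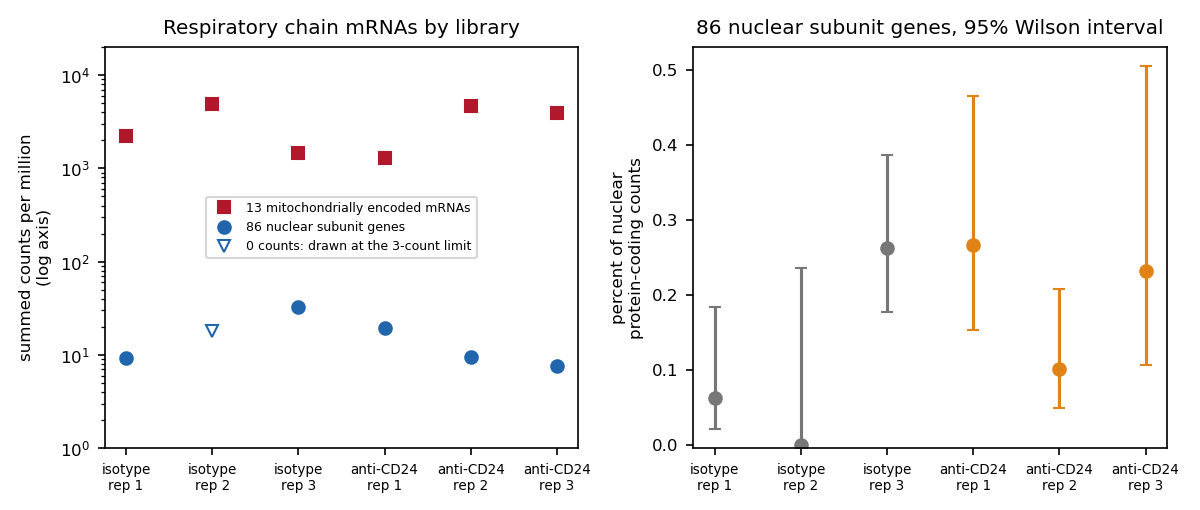
The left panel plots the summed CPM of the 86 nuclear subunit genes (circles) and of the 13 mitochondrially encoded mRNAs (squares) in each library on a log axis, with the library at 0 drawn as an open triangle at its limit of 3 counts. The right panel plots the nuclear genes as a percent of nuclear protein-coding counts, with 95% Wilson intervals, in the isotype (grey) and anti-CD24 (orange) libraries. The squares lie between 1278 and 4876 CPM and the circles between 7.55 and 32.7 CPM, and the intervals of the conditions overlap.

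The nuclear genes took up 0.176% of nuclear protein-coding counts, from 0.397% of the genes and 0.180% of the exon bases of that class. Their density per kilobase was therefore close to that of the class as a whole. All nuclear protein-coding genes together had 0.311 counts per kilobase, or 0.234 without the 3 most abundant genes (Lars2, Fcgr3 and Zfp260) and 0.205 without the 50 most abundant. The share of genes with a count was also near the class as a whole, at 30.2% of the respiratory chain genes and 33.4% of all nuclear protein-coding genes. The subunit genes were shorter, with a median of 1560 exon bases against 3518.

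The mRNAs of the cytosolic ribosomal proteins, another set of short housekeeping messages, gave a different picture. This set also had 86 genes and nearly the same exon length (176 kb against 174 kb), and 79.1% of its genes had a count. It had 595 counts, 11.2 for each count of the respiratory chain genes, and 22 of its genes had more counts than Ndufs7. Rpl8, of the large subunit, had 37 counts, and Rplp0, of the ribosomal stalk, had 30. There were 52, 38 and 211 ribosomal protein counts in the isotype libraries and 149, 109 and 36 in the anti-CD24 libraries. For each respiratory chain count this was 17.3 in isotype replicate 1, 8.44 in isotype replicate 3, and 12.4, 15.6 and 6.0 in the anti-CD24 libraries. The ribosomal protein sum was the higher in all 6 libraries.

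Other mitochondrial gene lists had densities at or below that of the subunit genes. Assembly factors and partners, such as the cytochrome c gene Cycs and the adenine nucleotide carriers, had 10 of 56 genes with a count and 0.247 counts per kilobase. Of their 41 counts, 23 belonged to Taco1, a translational activator of mt-Co1, which had a count in all 6 libraries (5, 3 and 5 in isotype, 2, 7 and 1 in anti-CD24), and 5 to Cycs. Mitochondrial ribosomal proteins and other genes of mitochondrial gene expression had 27 of 92 genes with a count and 0.155 counts per kilobase. The citric acid cycle enzymes had 8 of 17 genes with a count and 0.199 per kilobase. For scale, 2 lists of genes that B cells are not known to use were taken after the data were seen. Olfactory receptors had 0.0992 counts per kilobase, and keratins had 0.476, above the respiratory chain genes.

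**Figure D2:**
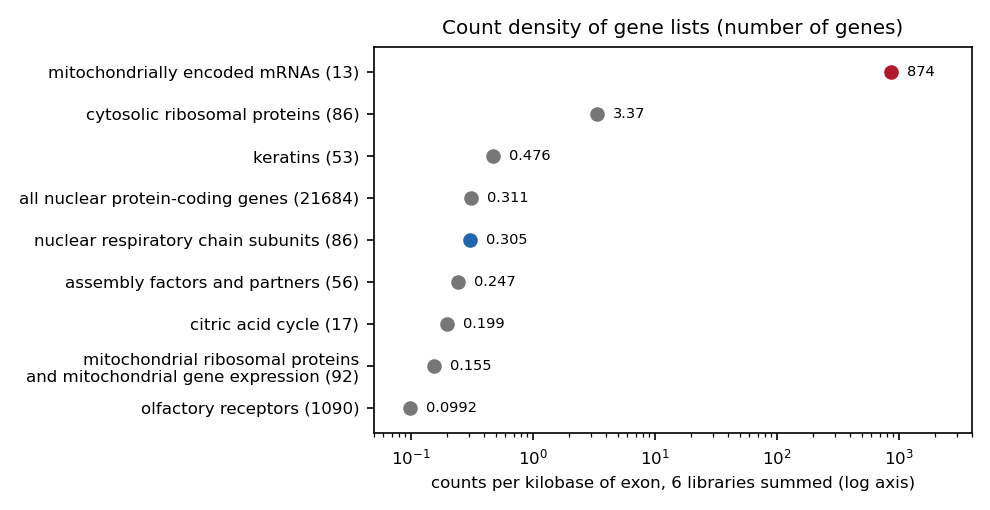
Counts per kilobase of exon, summed over the 6 libraries, are plotted on a log axis for each gene list, with the number of genes in parentheses. The nuclear respiratory chain genes (blue, 0.305) lie beside all nuclear protein-coding genes (0.311), below the cytosolic ribosomal proteins (3.37) and far below the mitochondrially encoded mRNAs (red, 874).

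Counts of the nuclear genes were thinly spread. Of the 26 genes with a count, 14 had exactly 1, 12 had 2 or more, 7 had 3 or more and none had 10. Only 4 genes had a count in more than 1 library, and none had counts in 3. Of the 12 genes with at least 2 counts, 8 had them all in a single library (66.7%), against 45.3% of the 3796 nuclear protein-coding genes with 2 to 8 counts. In 5 of these 8 genes that library was isotype replicate 3. Isotype replicate 3 held 47.2% of all counts of the respiratory chain genes and 31.8% of all nuclear protein-coding counts, which made it the deepest library for this class. It detected 12 of the 86 genes, isotype replicates 1 and 2 detected 3 and 0, and the anti-CD24 replicates detected 6, 6 and 3. With each library thinned to 15626 counts not on rRNA or ribozymes, 1.69, 0 and 4.74 genes would be expected in the isotype libraries and 2.20, 0.957 and 1.01 in the anti-CD24 libraries. Without isotype replicate 3 the set had 28 counts on 17 genes, and without anti-CD24 replicate 1 it had 41 counts on 21 genes.

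Complex I, the NADH dehydrogenase that opens the chain, had the most nuclear counts, with 34 on 14 of its 38 genes. It thus held 64.2% of the counts from 44.2% of the genes, or 0.418 counts per kilobase. Ndufs7 (chr10:80249121-80256794), which carries the last iron-sulfur cluster before the quinone site, had 0 counts in each isotype library and 6, 2 and 0 in the anti-CD24 libraries. Its mean was 4.18 ± 5.08 CPM (SD, n = 3) in anti-CD24. The conditions overlapped because anti-CD24 replicate 3 was at 0 as well, and 6 of the 8 counts came from the library that also held the globin counts, whose part in the result was not tested. Summed over the anti-CD24 libraries, Ndufs7 was at 1.56-fold a limit of 3 counts over the isotype group. This value takes the 8 counts as exact, so it is no lower bound on a difference.

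Ndufa9 (chr6:126821721-126849136), an accessory subunit near the junction of the matrix and membrane arms, had 4 counts, all in isotype replicate 3. Summed, the isotype libraries were at 2.28-fold the limit of 3 counts over the anti-CD24 group, although isotype replicates 1 and 2 were also at 0. This value too takes its 4 counts as exact. Ndufb11 and Ndufa7, accessory subunits of the membrane arm and of the matrix arm, had the same counts, 2 in isotype replicate 3 and 1 in anti-CD24 replicate 2. Ndufb5, Ndufb8 and the core flavoprotein subunit Ndufv2 had counts in isotype replicate 3 only, 3 for Ndufb5 and 2 for each of the others. Ndufa1, shown above, had its 3 counts in anti-CD24 replicate 3. Each complex I gene not named so far that was detected had a single count. These were Ndufa5 in isotype replicate 1, Ndufa11, Ndufa13 and Ndufv3 in anti-CD24 replicate 1, and Ndufa8 and the core iron-sulfur subunit Ndufs1 in anti-CD24 replicate 2.

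Complex V followed, with 13 counts on 6 of 17 genes (0.282 per kilobase). Atp5b (chr10:128083273-128090391), the catalytic beta subunit, had 4 counts in isotype replicate 3, 1 in anti-CD24 replicate 2 and none in the other libraries. This gave 1.75 ± 3.02 CPM in isotype and 0.453 ± 0.784 in anti-CD24 (SD, n = 3 each), so the conditions differed by less than the spread between replicates. The alpha subunit gene Atp5a1 had 2 counts in anti-CD24 replicate 3. Of the stalk subunits, Atp5o had 2 counts in anti-CD24 replicate 1, Atp5j had 2 and Atp5f1 had 1 in isotype replicate 3, and the rotor subunit Atp5c1 had 1 in isotype replicate 1.

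The remaining complexes were barely seen. Complex III, the cytochrome bc1 complex, had 1 count each of Uqcrb in isotype replicate 1, the core protein gene Uqcrc1 in anti-CD24 replicate 1 and the cytochrome c1 gene Cyc1 in anti-CD24 replicate 3, on 3 of 9 genes. Complex IV, cytochrome c oxidase, had 1 count each of Cox6a1 and Cox6b1, both in isotype replicate 3, on 2 of 18 genes. Complex II, succinate dehydrogenase, had 1 count of its flavoprotein gene Sdha, also in isotype replicate 3, on 1 of 4 genes.

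**Figure D3:**
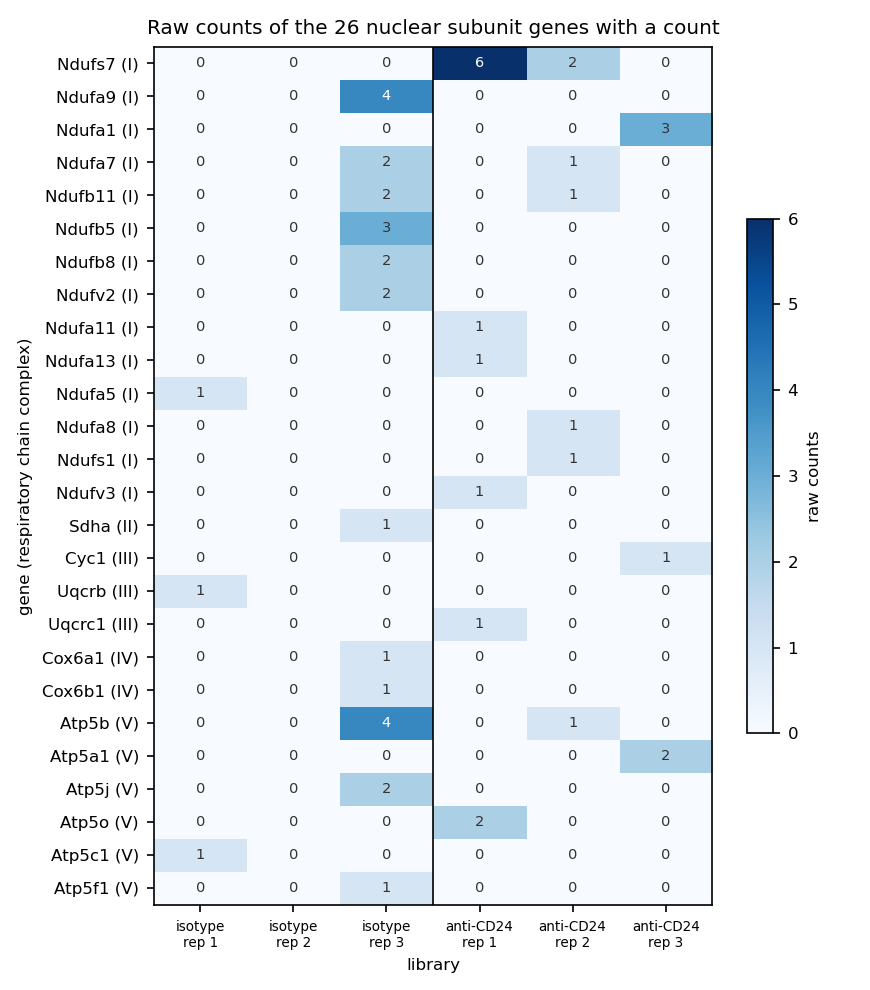
Raw counts of the 26 nuclear subunit genes with at least 1 count (rows, with the complex in parentheses) are shown in each library (columns), from 0 (white) to 6 (dark blue). Isotype replicate 2 has no count, isotype replicate 3 has 25 of the 53, and no gene has counts in 3 libraries.

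No count was found for 60 of the 86 genes (69.8%). In complex I these included Ndufa2, Ndufa3, Ndufa4, Ndufa4l2, Ndufa6, Ndufa10, Ndufa12, Ndufab1, Ndufb2, Ndufb3, Ndufb4, Ndufb6, Ndufb7, Ndufb9, Ndufb10, Ndufc1, Ndufc2, Ndufs3, Ndufs4, Ndufs5, Ndufs6, Ndufs8 and Ndufv1. Among them are the core subunits of the matrix arm Ndufs3, Ndufs8 and Ndufv1. In complex II they were Sdhb, Sdhc and Sdhd, and in complex III Uqcr10, Uqcr11, Uqcrc2, Uqcrfs1, Uqcrh and Uqcrq, among them the Rieske iron-sulfur protein gene Uqcrfs1. In complex IV they were Cox4i1, Cox4i2, Cox5a, Cox5b, Cox6a2, Cox6b2, Cox6c, Cox7a1, Cox7a2, Cox7a2l, Cox7b, Cox7b2, Cox7c, Cox8a, Cox8b and Cox8c. This list holds both the ubiquitous genes (Cox4i1, Cox7c, Cox8a) and forms of restricted expression, such as the muscle and heart forms Cox6a2, Cox7a1 and Cox8b. In complex V they were Atp5d, Atp5e, Atp5g1, Atp5g2, Atp5g3, Atp5h, Atp5j2, Atp5k, Atp5l, Atp5mpl and Atp5s, so none of the 3 genes for the c subunit of the rotor ring had a count. A gene at 0 could still have had a level of up to 3.78 to 18.1 CPM, depending on the library, at a limit of 3 counts.

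The rule follows symbols, and some genes it takes are not structural subunits of the complex their name gives. The Ndufa4 product is now placed with complex IV, and Atp5s encodes a factor outside the stable ATP synthase. Both were among the genes at 0, so they added no counts. They are still part of the gene numbers, shares of genes and exon lengths above.

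Pseudogenes, which respiratory chain genes have in number, held few further counts. With a match of at least 100 bases at 95% identity or more, 25 of the 86 genes had 50 pseudogene copies, and 19 of these 25 genes were at 0. Only 4 of the copies had a count, 8 counts in all, of which 5 were on Gm15645. Its match to Atp5l spanned only 135 bases. Atp5l shared stretches of similar length with many genes that are not pseudogenes, so whether Gm15645 is its copy is uncertain. With these 8 counts added to the nuclear side only, the ratio per kilobase between the mitochondrially encoded and nuclear sets was 2487. Copies of the mitochondrially encoded mRNAs were not added to their side. Those held far more counts, such as 1355 on the chromosome 1 copy of mt-Atp6, so 2487 does not show the effect of copies on the ratio. Exon bases shared with another gene on the same strand were found in 3 of the 86 genes and made up less than 10% of each. For Atp5b, 22 other genes shared a stretch of at least 100 bases, none of them a pseudogene, so its counts are uncertain.

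Differences between the conditions were small against the spread. The nuclear genes made up 0.0624%, 0% and 0.262% of nuclear protein-coding counts in isotype replicates 1, 2 and 3, and 0.266%, 0.101% and 0.232% in the anti-CD24 replicates. The lowest 2 values were isotype and the highest was anti-CD24, but the conditions overlapped. The means were 0.108% ± 0.137 in isotype and 0.200% ± 0.0874 in anti-CD24 (SD, n = 3 each), a difference of 0.0915 percentage points that lay within the SD of the isotype libraries. Between libraries that shared a sequencing run the differences were 0.204, 0.101 and -0.0298 points. Relative to all counts on genes, the difference turned to -0.00018 points, so no direction can be given. In these bulk samples fewer EVs from 1 source and less RNA per EV cannot be told apart.

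Gene by gene, edgeR's quasi-likelihood test compared 3 anti-CD24 with 3 isotype libraries. With the filter used in the study, 1.0 CPM in at least 3 libraries, 1501 genes were tested and 1 was called at an adjusted p under 0.05, or 0.0666% (DESeq2 called 0, and 120 genes had an unadjusted p under 0.05 in edgeR). None of the 86 nuclear respiratory chain genes passed this filter, so none was tested there. Without a filter, 26 of them were among 9700 genes tested and 0 were called, with a background of 0.0206%. Also 0 of the 26 had an unadjusted p under 0.05. The lowest adjusted p among them was 0.44 by edgeR's quasi-likelihood test, and fitted log2 differences were above 0 for 11 and below 0 for 15. No gene of the set had libraries of 1 condition all above those of the other. None could, because no gene had counts in 3 libraries, so this says nothing on the conditions. With at most 8 counts per gene, a difference of a single gene was not detectable at this depth.

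By complex, the mitochondrially encoded counts were distributed differently from the nuclear ones. Complex I held 31.1% of the mitochondrially encoded counts (3097 on 7 genes), complex III 6.62% (660 on mt-Cytb), complex IV 36.7% (3656 on 3 genes) and complex V 25.6% (2553 on 2 genes). In these sums complex IV had the most mitochondrially encoded counts and only 2 nuclear ones. In isotype replicate 2, complex V had more mitochondrially encoded counts than complex IV, 303 against 233, and its mean share of all counts in isotype was also the higher (0.0971% against 0.0914%). In counts per kilobase, the mitochondrially encoded genes exceeded the nuclear genes 1164-fold in complex I, 2956-fold in complex III, 12178-fold in complex IV and 10213-fold in complex V. The values for complexes III and IV rest on 3 and 2 nuclear counts. Without isotype replicate 3 the ratio was 1896 in complex I and 19433 in complex V, and complex IV had no nuclear count left. Without anti-CD24 replicate 2 it was 7834 in complex IV.

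Among the mitochondrially encoded mRNAs, mt-Atp8 had the highest level per kilobase, with a mean of 3279 CPM per kilobase, and mt-Nd3 the lowest, with 25.8. In these means, even mt-Nd3 was 17.2-fold above the highest nuclear gene. This did not hold in each library, since in isotype replicate 1 mt-Nd3 was at 0 and Uqcrb at 3.54 CPM per kilobase. Between mt-Atp8 and mt-Nd3 lay mt-Nd4l at 486, the oxidase core subunits mt-Co2 at 466, mt-Co1 at 385 and mt-Co3 at 200, and the proton channel subunit mt-Atp6 at 299. The cytochrome b gene mt-Cytb had 170, and the complex I genes mt-Nd2, mt-Nd1, mt-Nd5, mt-Nd4 and mt-Nd6 had 221, 186, 120, 90.4 and 49.4. Neighbours in this order differed by less than the larger of both SDs over the 6 libraries, except mt-Atp8 from mt-Nd4l (SD 2466 and 358). In raw counts summed over the 6 libraries mt-Co1 led, with 2039 against 1852 for mt-Atp8. It had 132, 128 and 264 counts in the isotype libraries and 177, 688 and 650 in the anti-CD24 libraries, so that mt-Atp8 was the higher in isotype replicates 1 and 2. mt-Nd3 had 0, 3 and 3 counts in isotype and 2, 9 and 13 in anti-CD24.

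These levels carry a limit of the counting. Several mRNAs have a copy on chromosome 1 that is identical over the aligned bases. The counts were near-equal for mt-Co2 (1080, and 1081 for its copy), mt-Nd4l (404 and 408) and mt-Co3 (537 and 558). They differed for mt-Atp6 (701, and 1355 for its copy) and mt-Nd4 (436 and 209). The copy of mt-Nd3, at 99.7% identity, had 304 counts against 30, so the level of mt-Nd3 is uncertain. Whether a read was placed at 1 copy or counted at each cannot be told from the counts, and the sum for the mitochondrially encoded mRNAs leaves these copies out.

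**Figure D4:**
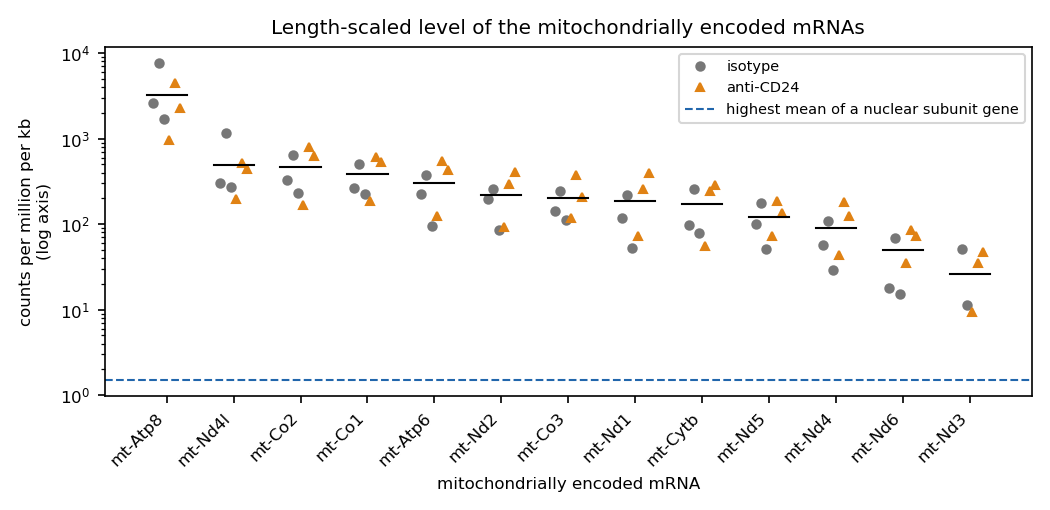
CPM per kilobase of exon are plotted on a log axis for each mitochondrially encoded mRNA in the isotype (grey circles) and anti-CD24 libraries (orange triangles), with the mean of the 6 as a black bar. The value of mt-Nd3 in isotype replicate 1 is 0 and is not drawn. The dashed line marks the highest mean of a nuclear subunit gene, 1.5 for Ndufa1, which lies below each point shown.

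Between the conditions, 0 of the 13 mitochondrially encoded mRNAs were called by edgeR's quasi-likelihood test, against the background of 0.0666% of genes. Their log2 fold changes ran from -0.22 (mt-Atp8) to 1.65 (mt-Nd1), with a median of 1.10 where the median of all genes tested was -0.29. mt-Nd1 had a log2 fold change of 1.65 ± 0.81 (SE) and was the only one with an unadjusted p under 0.05 (adjusted p = 0.54 by edgeR's quasi-likelihood test). Its counts were 36, 35 and 38 in the isotype libraries and 42, 182 and 302 in the anti-CD24 libraries. In CPM the conditions overlapped for mt-Nd1, as for each of the 13. Without anti-CD24 replicate 1, the library with the globin counts, mt-Nd1 was called (log2 fold change 2.24, adjusted p = 0.035 by edgeR). Without anti-CD24 replicate 3 its log2 fold change was 0.22 (adjusted p = 0.94 by edgeR), and the median of the 13 was 0.13 where that of all genes was -0.13. Without isotype replicate 3 the log2 fold change of mt-Nd1 was 0.81 and the median of the 13 was 0.38. DESeq2, which called none of the 13, gave a median of 0.40 for them where its median of all genes was -0.97.

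The balance of both genomes also turned on 1 library. Summed over libraries, there were 94.1 mitochondrially encoded counts per nuclear count in isotype and 293 in anti-CD24, a log2 difference of -1.64 in the nuclear to mitochondrial ratio. Without isotype replicate 3, which held 25 of the 28 isotype counts of the nuclear genes, this difference was 0.79, in the opposite direction.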

How the data were processed

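EV RNA was sequenced on an IonTorrent PGM, with libraries made without RNA fragmentation. The authors trimmed reads with FASTX, aligned them with tmap, counted them on exons with htseq-count (HTSeq 0.5.4p5 and GRCm38.p4 in the submitters' processing notes; union mode, stranded) and deposited the raw gene counts of the libraries. The paper's methods name another patch of GRCm38. The summary lines of each file were left out: 15.4% to 27.2% of aligned reads fell on no gene and 0.978% to 2.71% were ambiguous. Per the labels the secondary antibody was raised in donkey, while the methods name another species.

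Genes were classed by GENCODE M21, and 419 of 47729 were not in it. A further gene named Atp5o and Ndufb1-ps were not used here. Levels are raw counts, CPM of all counts on genes, or counts per kilobase of merged exons. Shares have 95% Wilson intervals. Depth allows 3 counts to show 3.78 to 18.1 CPM.

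The 6 libraries were grouped by the treatment in their labels. edgeR 4.0.16 (R 4.3.3, quasi-likelihood test, TMM, Benjamini-Hochberg over all genes tested) was fitted on the whole table. It was also run on simulated data with large changes in better counted genes. That run does not show what could be detected among the nuclear respiratory chain genes. P-values set the difference between the conditions against the spread between these libraries, which was estimated with help from all genes tested. DESeq2 1.42.0, other filters and scalings, a replicate block and leaving out each library were tried. Replicate numbers marked a shared sequencing run, but deviations of same-numbered libraries correlated at -0.0298, -0.0238 and -0.106 over 1501 genes, so the block was not used. Copies were sought with BLAST+ 2.17.0. Other steps used Python 3.11.15, numpy 2.4.6, pandas 2.3.3, scipy 1.17.1 and matplotlib 3.10.9.

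The members, lists and tests were chosen with earlier results of these data known. Genes were named by a rule, as members passing the filter, the 20 members with the highest mean CPM, those with an unadjusted p under 0.05, the most abundant of each complex and the 13 mitochondrially encoded mRNAs. The other members with a count, and genes outside the set, were named after their values were seen. Some genes of the lists are not reported here by name.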

Additional observations from a re-analysis of the deposited data

How the results depend on the processing

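At 53 counts, depth limited every statement on single nuclear genes. The count of 0 nuclear respiratory chain genes called held under all 12 alternatives, but only the fit without a filter tested any of them. Over all genes, the 1 call became 0 with DESeq2, 0 with the replicate block, 2 without a filter and 2 with at least 10 counts over the libraries. It ran from 0 to 48 with 1 library left out (48 without anti-CD24 replicate 1 and 3 without anti-CD24 replicate 3), and no other call changed under the block. Detection fell from 26 genes to 7 at 3 counts or more, 0 at 10 or more and 10.2 after thinning. Higher minimums and thinning lower this number by construction. With 1 library left out (chosen after seeing the data for the number of genes detected and the level per kilobase), 17 to 26 genes were detected, 17 of them without isotype replicate 3, and the ratio per kilobase ran from 2157 to 4815. The log2 difference in the nuclear to mitochondrial ratio ran from -2.42 to 0.79, turning only without isotype replicate 3. The difference in share ran from 0.0375 to 0.168 points with 1 library left out and was -0.00496 points against counts outside the rRNA and ribozyme genes. Of the mitochondrially encoded mRNAs, 9 of 13 kept their sign throughout. mt-Atp8 and mt-Nd4l turned to 0.32 and 0.45 with rRNA genes removed. With 1 library left out, mt-Atp8 ran from -0.97 to 0.49 and mt-Nd4l from -0.79 to 0.54, both above 0 without anti-CD24 replicate 1 or isotype replicate 2 (0.039 and 0.24 without the latter). mt-Cytb ran from -0.077 to 1.71 and mt-Nd2 from -0.039 to 1.81, both below 0 only without anti-CD24 replicate 3. For these and the changed calls the cause was not tested.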

Other observations

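mt-Atp8 and mt-Atp6 encode subunits of complex V and lie on 1 shared transcript, where their reading frames overlap, yet their counts stood in different ratios in the libraries. There were 3.49, 6.21 and 5.22 counts of mt-Atp8 per count of mt-Atp6 in the isotype libraries and 2.29, 2.45 and 1.58 in the anti-CD24 libraries, so the conditions did not overlap. A ratio within a library does not depend on its depth. The pair was picked after its values were seen, and no test was made. Among the 12 mitochondrially encoded mRNAs with a count in every library, 17 of 66 pairs had ratios that did not overlap between the conditions, and 9 of these 17 included mt-Atp8, from 11 pairs that do. Neither gene alone was called between the conditions by edgeR, with log2 fold changes of -0.22 for mt-Atp8 and 1.21 for mt-Atp6 (adjusted p = 0.91 and 0.54), and the sign for mt-Atp8 turned with rRNA genes removed.

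The ratio also has limits of counting. Reads over the 43 shared bases, 21.1% of the length of mt-Atp8, were ambiguous under the union mode. The copy of mt-Atp6 on chromosome 1 had 1355 counts against 701 for mt-Atp6 itself. By library the copy had 113, 96 and 175 counts in isotype and 105, 440 and 426 in anti-CD24. Per count of this copy, the values of mt-Atp8 overlapped between the conditions, so the separation depends on which of these loci is counted. The part of the shared bases and of the copy in the ratio was not tested. Barcode and condition cannot be told apart here either.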
